A study of Homo sapiens with 4 samples.

Results

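The guide strands of the miR-29 family were examined in HepG2 cells, an established human hepatoma line, after a short exposure to berberine. The family was taken as the miRNAs named hsa-miR-29a, hsa-miR-29b and hsa-miR-29c on the array, which are 3 of the 851 human miRNAs it measures. Cells received 40 µM berberine chloride, a plant isoquinoline alkaloid, dissolved in DMSO, or 0.08% DMSO alone as the control, and were sampled after 2 h and 4 h. Total RNA was labelled with Cy3 and hybridised to Agilent human miRNA microarrays of 1 colour, with 1 array for each of the 4 conditions. The comparison of treated with control cells at each time asked which miRNAs berberine alters. With no replicate array, no p-value can be given at a single time, and all 4 arrays lay on 1 slide, where array position and condition cannot be told apart.

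A miRNA is cut from a hairpin precursor, and the strand that is loaded into an Argonaute protein as the guide pairs with messenger RNAs mainly through its seed, the bases near the 5′ end. The miR-29 guides come from the 3′ arms of their hairpins. They are known for acting on transcripts of collagens and other extracellular matrix proteins, of the de novo DNA methyltransferases DNMT3A and DNMT3B, and of the survival factor MCL1, and low miR-29 levels have been described in liver fibrosis and in liver cancer.

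The guide sequences are shown because the members share one seed and differ by few bases, which bears on how separately an array can read them. They were taken from RefSeq, which names them miR-29a-3p, miR-29b-3p and miR-29c-3p. All 3 matched. Capitals mark the seed, bases 2 to 8.
hsa-miR-29a: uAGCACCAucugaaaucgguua
hsa-miR-29b: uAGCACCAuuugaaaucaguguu
hsa-miR-29c: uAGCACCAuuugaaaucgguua
The letters AGCACCA at bases 2 to 8 were found in 3 of 2370 human mature miRNAs of RefSeq (0.127%), which are these 3 members. Counting from the 5′ end and giving the first-named member's base first, miR-29a differed from miR-29c by C10U, with 21 of 22 bases identical. Between miR-29b and miR-29c the differences were A18G, G21U and U22A, with 19 of 22 identical. Between miR-29b and miR-29a they were U10C, A18G, G21U and U22A, with 18 of 22 identical. miR-29b is 23 bases long, 1 base more than the 22 of the others. Its last 6 bases, AGUGUU, are an ending described as a nuclear-localisation element. They closed 2 of the 2370 mature sequences (0.0844%), those of miR-29b and miR-519e-3p. The probe sequences were not used here, so whether the probes of one member also bind another was not tested.

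The 4 hairpins are shown because the family is encoded at a pair of loci and because one member has a pair of genes. In each, capitals mark the guide, and all lie on the minus strand of the GRCh38.p14 assembly used by RefSeq.
MIR29A, chr7:130876747-130876810: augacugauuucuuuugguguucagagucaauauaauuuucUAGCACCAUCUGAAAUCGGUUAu
MIR29B1, chr7:130877459-130877539: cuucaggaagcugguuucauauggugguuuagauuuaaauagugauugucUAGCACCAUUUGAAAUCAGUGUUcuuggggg
MIR29B2, chr1:207802443-207802523: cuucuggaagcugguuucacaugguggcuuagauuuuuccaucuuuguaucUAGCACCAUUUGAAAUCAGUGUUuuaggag
MIR29C, chr1:207801852-207801939: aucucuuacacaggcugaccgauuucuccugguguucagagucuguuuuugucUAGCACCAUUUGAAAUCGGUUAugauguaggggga
MIR29A and MIR29B1 are separated by 648 bases, and MIR29C and MIR29B2 by 503 bases. The chromosome 1 pair lies within the gene of a long non-coding RNA, MIR29B2CHG (1:207801518-207822703). The guides of MIR29B1 and MIR29B2 have the same letters, so the value of miR-29b on the array sums what both genes give and cannot be divided between them.

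All 3 members were detected on all 4 arrays. Each value is the total signal of a miRNA in arbitrary intensity units, summed over its probes after background subtraction, with the error that the scanner software's error model gives. Arrays are named in the order control at 2 h, berberine at 2 h, control at 4 h and berberine at 4 h. The total signal of miR-29a was 947 ± 70.2, 642 ± 47.6, 809 ± 59.6 and 1208 ± 88.9. That of miR-29b, the member with the distinct ending, was 965 ± 80.0, 660 ± 54.4, 812 ± 66.3 and 1252 ± 102. That of miR-29c was 362 ± 25.8, 246 ± 17.6, 288 ± 20.6 and 449 ± 31.99. In every member the signal was highest with berberine at 4 h and lowest with berberine at 2 h, with the controls between them. Between neighbours in that order, the 95% range of the log2 difference held 0 for the controls in miR-29a and miR-29b, and for the lowest pair in miR-29b and miR-29c. Signals of different miRNAs also depend on their probes, so the members are not ranked against each other.

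This order of the unscaled signals followed the brightness of whole arrays. The 75th percentile of the total signal, taken over the 197 human miRNAs that passed detection on every array, was 243, 169, 225 and 297 in the same order of arrays. After each array was divided by its 75th percentile, miR-29a stood at 3.89, 3.796, 3.59 and 4.06 times that percentile. miR-29b stood at 3.96, 3.90, 3.601 and 4.21 times, and miR-29c at 1.49, 1.46, 1.28 and 1.51 times. The order on this scale was berberine at 4 h, control at 2 h, berberine at 2 h and control at 4 h for all 3 members. The 95% range of the log2 difference held 0 for all neighbours in that order and also for the extremes, which lay 0.18, 0.23 and 0.24 apart on the log2 scale for miR-29a, miR-29b and miR-29c. Without scaling, the extremes lay 0.91, 0.92 and 0.87 apart, and their 95% range did not hold 0 in any member.

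**Figure D1:**
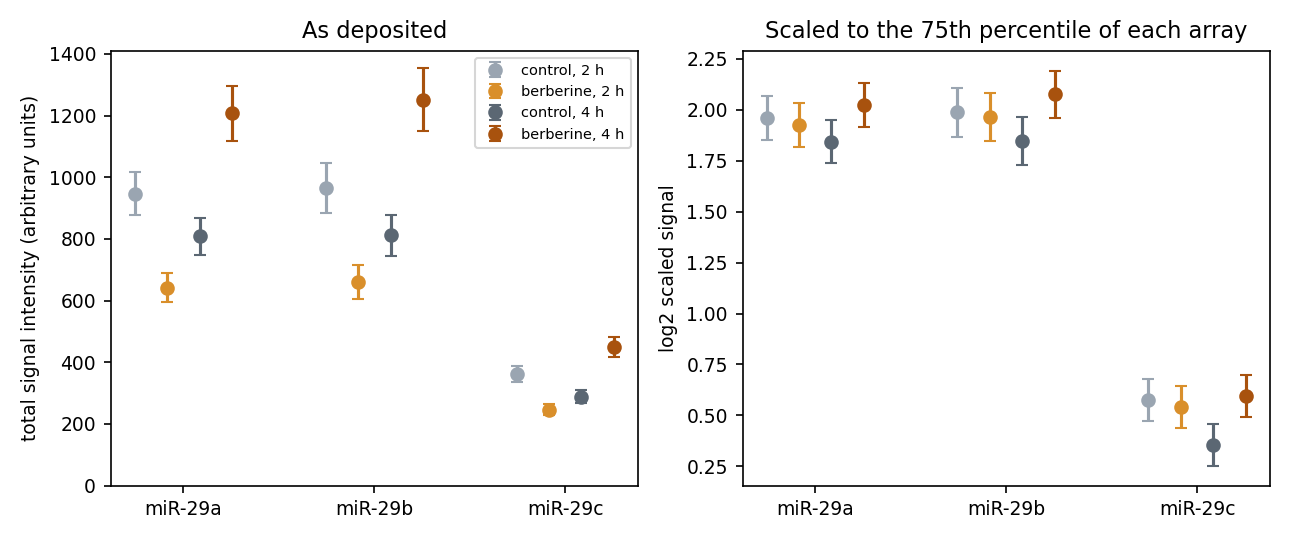
Total signal of each miR-29 guide strand in arbitrary intensity units (left) and as log2 of the signal over the 75th percentile of its array (right), with 1 point per array and bars of 1 software error. On the left every member spreads widely, miR-29a from 642 to 1208, while on the right its 4 arrays lie between 1.84 and 2.02.

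At 2 h, the scaled levels of the miR-29 guides with berberine were close to those of the control. The log2 ratio of berberine over control was -0.04 for miR-29a (SE 0.15, propagated from the errors of both arrays), with a 95% range of -0.33 to 0.26. It was -0.02 for miR-29b (SE 0.17, range -0.35 to 0.31) and -0.03 for miR-29c (SE 0.15, range -0.32 to 0.25). As folds these are 0.976, 0.985 and 0.978, and the widest range, that of miR-29b, runs from 0.783 to 1.24. A difference of 2-fold, the size the study's methods use, thus lies outside all 3 ranges. These ranges hold the software's error only, and not the difference between cultures, RNA preparations or hybridisations. None of the 3 members was more than 2-fold different, against 2 of 197 human miRNAs (1.02%), and none had a 95% range without 0, against 18 of 197 (9.14%). The median over all 197 was -0.02, and 172, 193 and 178 of the 197 lay farther from that median than miR-29a, miR-29b and miR-29c. Before scaling, the folds were 0.678, 0.684 and 0.680 and the median log2 ratio of all was -0.55.

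At 4 h, the scaled levels of all 3 guides with berberine lay above those of the control, within their error. The log2 ratio was 0.18 for miR-29a (SE 0.15, range -0.12 to 0.47), a fold of 1.13. It was 0.23 for miR-29b (SE 0.17, range -0.10 to 0.55), a fold of 1.17, and 0.24 for miR-29c (SE 0.15, range -0.04 to 0.53), a fold of 1.18. No member was more than 2-fold different, against 2 of 218 human miRNAs (0.917%), and none had a 95% range without 0, against 25 of 218 (11.5%). The median of all 218 was itself 0.11, and 144, 112 and 102 of them lay farther from it than miR-29a, miR-29b and miR-29c. The size of the ratio at 4 h depended on the scaling, and under one scaling so did its sign. With each array centred on its median in place of its 75th percentile it was 0.0075, 0.05 and 0.07 for miR-29a, miR-29b and miR-29c, and with no scaling it was 0.58, 0.63 and 0.64. With the 75th percentile taken over all 851 miRNAs, detected or not, it was -0.23, -0.18 and -0.16. At 4 h only 226 of the 851 were detected in the control and 242 with berberine, so this percentile lies near the limit of detection.

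A further comparison set the control at 4 h against the control at 2 h, which gives the size of difference between a pair of arrays without berberine. Time and array cannot be told apart in it. The log2 ratio was -0.12 for miR-29a (SE 0.15), -0.14 for miR-29b (SE 0.17) and -0.22 for miR-29c (SE 0.15, range -0.50 to 0.07). With median scaling these became 0.10, 0.07 and -0.0069, so that the sign turned for miR-29a and miR-29b. No member was more than 2-fold different, against 5 of 219 human miRNAs (2.28%), and none had a 95% range without 0, against 15 of 219 (6.85%). The ratios of berberine at 4 h and those between the controls share the control array at 4 h, the one on which all 3 members had their lowest scaled level.

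**Figure D2:**
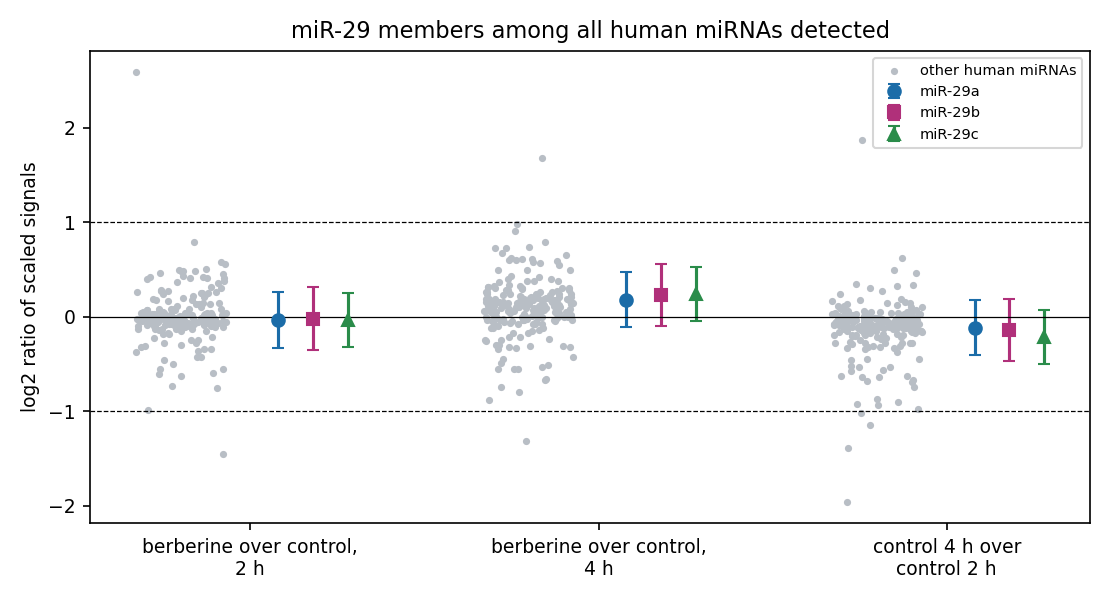
Log2 ratio of scaled signals for every human miRNA detected on both arrays of a comparison (grey points) and for the miR-29 guides (coloured, bars of the 95% range), with dashed lines at 2-fold. The bars of all 3 members cross 0 in each comparison and stay inside the dashed lines, and the members lie within the main cloud of points.

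The scaling of an array cancels when one member's ratio is set against another's on the same arrays. At 2 h the log2 ratio of miR-29b minus that of miR-29a was 0.01 (SE 0.23), and at 4 h it was 0.05 (SE 0.22, range -0.39 to 0.49). miR-29c minus miR-29a gave 0.06 at 4 h (SE 0.21, range -0.35 to 0.47). The 3 members spanned 0.013 at 2 h, 0.062 at 4 h and 0.10 between the controls on the log2 scale, in each case less than 1 SE of such a difference. The members were therefore not told apart by their response on these arrays, and differences as large as these ranges allow were not detectable. Only miR-29a and miR-29c come from separate loci, since miR-29b has a gene at each. Whether the probes of one member also read another was not tested.

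The miR-29 signals rested on bright, repeated spots. Each member was read by 2 probes of 8 spots each, 48 spots per array, and all 192 spots on the 4 arrays were well above background. The software marked 22 of them as outliers, which were left out of the probe values here. On the control array at 4 h, a marked spot of the second probe of miR-29a had 12.9% of the mean of the unmarked spots, and one of the second probe of miR-29c had 31.6%. The remaining spots of a probe varied by 0.699% to 7.60% (coefficient of variation, median 3.12%), whereas the error model gave every probe an error of 10.0% to 10.1% of its signal. The probe errors are therefore wider than the scatter of spots, and the scatter of spots does not hold the difference between cultures, RNA preparations or hybridisations.

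Probe by probe, the scaled log2 ratios at 2 h lay between -0.07 and 0.02, with 1 of the 6 probes above 0. At 4 h they lay between 0.19 and 0.27, and the probes of one member differed from each other by little, 0.19 and 0.20 for miR-29a, 0.23 and 0.27 for miR-29b, and 0.26 and 0.25 for miR-29c. Between the controls they lay between -0.23 and -0.02, the smallest being the second probe of miR-29b. At 2 h the spots of berberine and control overlapped in 6 of 6 miR-29 probes after scaling, while 14.4% of all probes and 17.9% of the probes of the brighter miRNAs did not overlap. At 4 h they did not overlap in 4 of 6 miR-29 probes, against 24.2% of all probes and 43.3% of those of the brighter miRNAs, and between the controls in 4 of 6 against 13.1% and 18.9%. With median scaling the count was 1 of 6 in each comparison, near the shares of all probes under that scaling, which were 15.3% at 2 h, 15.0% at 4 h and 20.2% between the controls (20.9%, 18.9% and 33.8% for the brighter miRNAs). The separation of spots thus depended on the scaling. Brighter miRNAs here are the 98 in the upper part by signal of the 197.

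**Figure D3:**
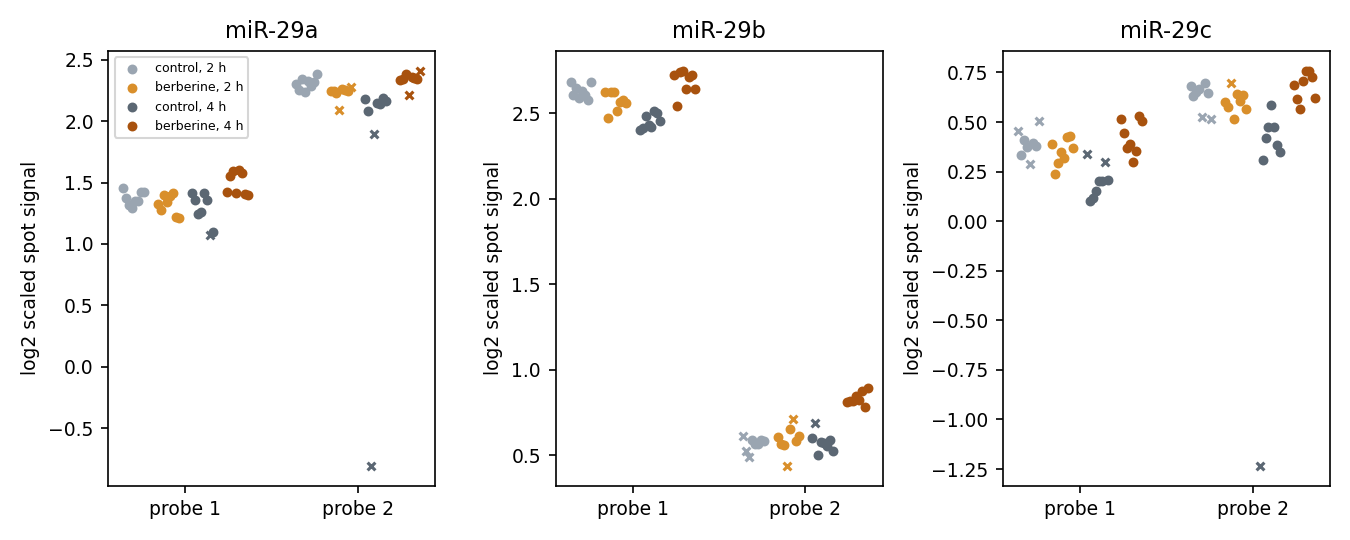
Log2 of the spot signal over the 75th percentile of its array for the 2 probes of each miR-29 guide, with 1 point per spot coloured by array and crosses for spots marked as outliers. At 2 h the spots of both conditions overlap in all 6 probes, and the marked spots of miR-29a and miR-29c far below the rest are on the control array at 4 h.

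A single model over both times was fitted across the 197 miRNAs with limma, with treatment and time as terms and 1 residual degree of freedom. It gave a berberine over control log2 ratio of 0.07 for miR-29a, 0.10 for miR-29b and 0.10 for miR-29c, each with an SE of 0.21 and a limma adjusted p of 0.997. Across all 197, 1 miRNA (0.508%) passed an adjusted p of 0.05 either way, and it was not a member. 9 of the 197 had an unadjusted p under 0.05. The median ratio of all was 0.06. The variance behind the members' SE was drawn mostly from all 197 miRNAs (prior degrees of freedom 54.2), not from the members' own scatter. When that variance was allowed to follow signal intensity, the SE was 0.14, 0.14 and 0.12 for miR-29a, miR-29b and miR-29c. Over 11 other settings of this fit the members' adjusted p ran from 0.701 to 1.

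**Figure D4:**
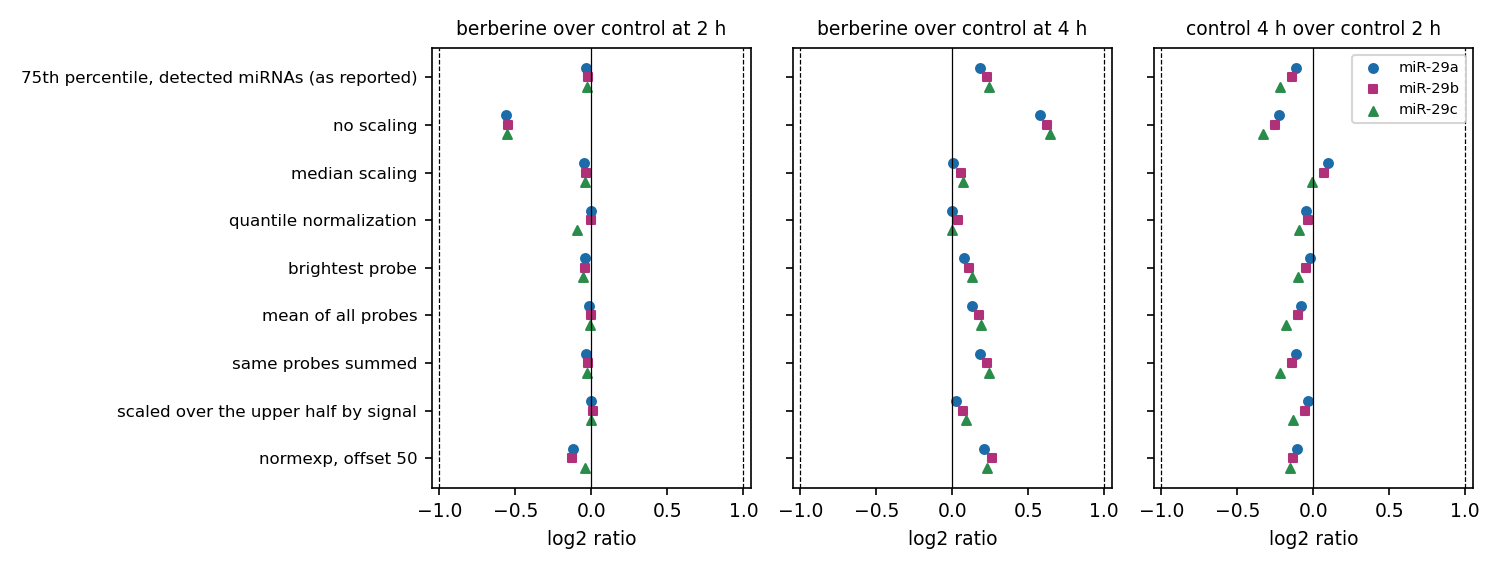
Log2 ratio of each miR-29 guide under the reported scaling and 8 other settings, 1 panel per comparison, with dashed lines at 2-fold. At 4 h the 3 members lie from 0.58 to 0.64 without scaling down to 0 to 0.07 with median scaling or quantile normalisation. Dividing an array by another constant shifts every miRNA equally, so joint movement between such scalings is arithmetic and tells nothing about the family. Scaling by the percentile over all 851 miRNAs is not shown. It puts the members at 5.07 to 5.08 at 2 h and at -0.23 to -0.16 at 4 h. The values at 2 h follow from the 0.1 written for undetected miRNAs, on which that percentile falls with berberine.

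The opposite strands of the same hairpins, called passenger strands and marked by an asterisk on the array (miR-29a*, miR-29b-1*, miR-29b-2* and miR-29c*), gave signals near the limit of detection. miR-29b-2* was not detected on any array. The others were detected on all arrays except berberine at 2 h, where the brightest probe of each had 2.19, 2.42 and 2.23 times its own error for miR-29a*, miR-29b-1* and miR-29c*, under the 3 times that detection needs. On the other arrays, control at 2 h, control at 4 h and berberine at 4 h, miR-29a* had 1.79 ± 0.589, 2.34 ± 0.775 and 2.66 ± 0.651. miR-29b-1* had 2.04 ± 0.597, 6.90 ± 1.16 and 9.11 ± 1.17, and miR-29c* had 5.28 ± 1.24, 4.75 ± 1.55 and 5.94 ± 1.32. Of their 256 spots, 24 were well above background.

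For these strands berberine over control at 4 h gave scaled log2 ratios of -0.21 for miR-29a* (SE 0.59), 0.0019 for miR-29b-1* (SE 0.30) and -0.08 for miR-29c* (SE 0.57), all with a 95% range that held 0. Between the controls miR-29b-1* differed by 1.87 (SE 0.49), but its total summed a different number of probes on each array, since the software adds only probes above 3 times their error. It summed 1 probe on the control array at 2 h, 2 at 4 h and 3 with berberine at 4 h. The sum was then held to the same 3 probes throughout, those above 3 times their error on at least 1 array. Of these, 1 passed only with berberine at 4 h, at 3.26 times its error. Another passed only on the arrays at 4 h. It had 2.96 times its error in the control at 2 h and 4.72 times in the control at 4 h. The choice of probes thus drew on both arrays at 4 h. On these 3 probes the signal of miR-29b-1* was 5.02 ± 1.02 in the control at 2 h and 5.07 ± 1.40 with berberine at 2 h. At 4 h it was 8.39 ± 1.38 in the control and 9.11 ± 1.17 with berberine. The ratio between the controls was then 0.85 (SE 0.38), with a 95% range that did not hold 0. Because the probes were chosen in part for passing at 4 h, this range does not bear out a difference between the controls. Berberine over control was 0.54 at 2 h (SE 0.49) and -0.28 at 4 h (SE 0.30), both with a 95% range that held 0. The value of 1.87 thus rested in part on which probes the software summed. The guides are not open to this, since both probes of each were summed on every array.

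**Figure D5:**
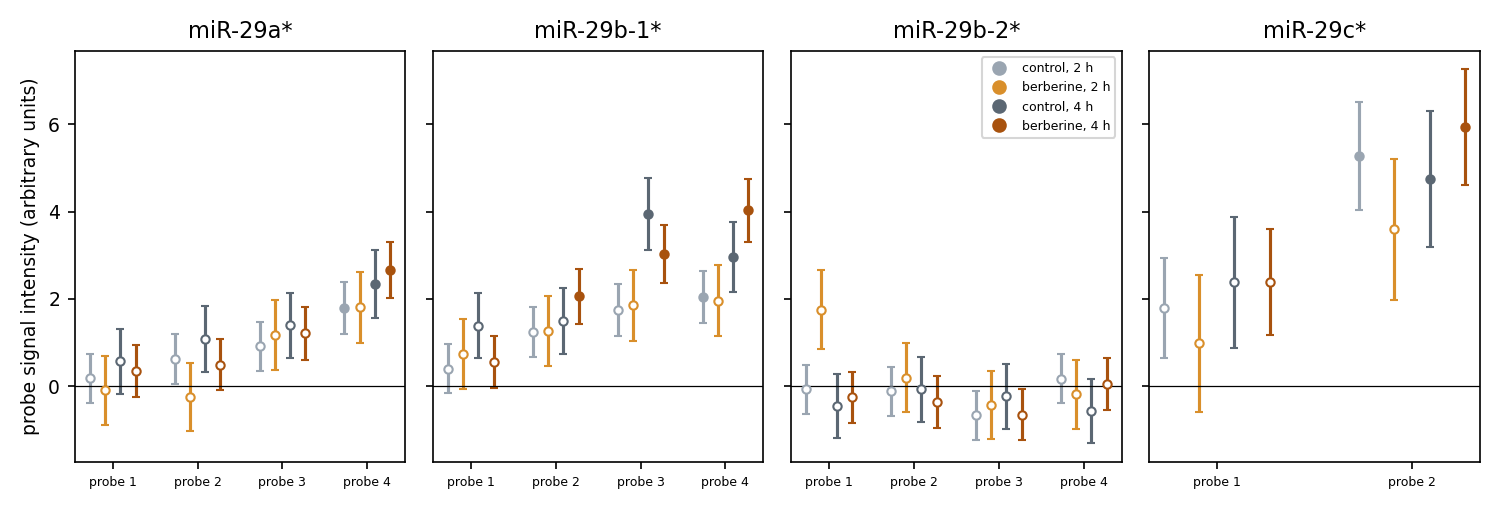
Signal of each probe of the 4 passenger strands in arbitrary intensity units on the 4 arrays, with bars of 1 probe error. Filled points exceed 3 times their error and enter the total, and open points do not, which for miR-29b-1* leaves 1 filled probe in the control at 2 h and 3 with berberine at 4 h.

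Other miRNAs described as acting on DNA methyltransferases were taken for comparison, because this is a target class that they share with miR-29. The list holds miR-148a, miR-148b, miR-152, miR-143, miR-101, miR-342-3p and miR-185. All 7 were on the array, 4 were detected on all 4 arrays and miR-342-3p on none. None was more than 2-fold different or had a 95% range without 0 among the 4 measured at 2 h, the 5 at 4 h and the 5 between the controls. Their median log2 ratio was -0.03 at 2 h, 0.14 at 4 h and -0.11 between the controls, beside -0.02, 0.11 and -0.08 over all miRNAs. At 2 h the ratios ran from -0.09 for miR-101 to 0.0075 for miR-148b, and at 4 h from -0.0091 for miR-152 to 0.26 for miR-185. As with the miR-29 guides, the ratios at 4 h were lower with median scaling, which shifts every miRNA by the same amount. They came to -0.03 for miR-148a, 0.06 for miR-101 and 0.09 for miR-185, while miR-152, already below 0, moved farther from 0.

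The miRNAs whose pattern over the 4 arrays was most like that of each guide were found by the root mean square difference of log2 scaled levels, after each miRNA was centred on its own mean, among the 196 others detected on all arrays. For miR-29a these were miR-362-5p (0.0124), miR-24 (0.0155) and miR-361-5p (0.0165), with miR-29b in place 6 (0.0175) and miR-29c in place 41 (0.0428). For miR-29b they were miR-361-5p (0.0154), miR-29a (0.0175) and miR-24 (0.0176), with miR-29c in place 15 (0.0347). For miR-29c they were miR-185 (0.0152), miR-361-5p (0.0295) and miR-483-5p (0.0296), with miR-29b in place 7 and miR-29a in place 13. The median over all others was 0.0952, 0.102 and 0.106. These measures describe 4 arrays only, all points share the scaling of their array, and the differences are smaller than the error of a single level.

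The arrays held 199 to 242 detected human miRNAs, fewest with berberine at 2 h, and no spot was saturated. All 5 hepatic markers fixed for checking the cell line were detected on every array, with signals of 22.4 to 1565, among them miR-122, the main liver miRNA, at 31.5, 22.4, 30.1 and 39.9. Of 13 markers of blood, muscle, neurons, endothelium and mesenchymal cells, 9 were detected on no array. miR-142-3p, miR-451 and miR-143 were detected only with berberine at 4 h, at 6.13, 5.31 and 3.95, and miR-145 was detected on all 4 at 19.7 to 42.3. The array with most detected miRNAs and the brightest signal was thus also that with the highest miR-29 levels, and the part of array brightness in the values at 4 h was not tested beyond the scalings given.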

How the data were processed

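The authors deposited, for each of the 4 arrays, the output of Feature Extraction 10.7.3.1 on a design annotated to hg18, with a background-subtracted intensity and error per spot, probe and miRNA. These intensities are not scaled between arrays, and the scaling used in the study is not given in the sources used here. A second deposited table holds only the authors' own ratios of berberine over control and was not used. No column of per-sample values was left unused (0). A miRNA counted as detected by the software's flag, and undetected miRNAs are written as 0.1.

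Total signals were divided by the 75th percentile of their array, taken over the 197 human miRNAs that every array detected, and log2-transformed. Errors were propagated, and a 95% range is the normal interval of the propagated error (SE). This range covers the software's measurement error on 1 array per condition, and with so few arrays their number limits the precision. Ratios needed detection on both arrays. The model over both times used limma 3.58.1 in R 4.3.3 with Benjamini-Hochberg adjustment, tested on simulated data first. Its p-values set each ratio against a variance drawn mostly from all 197 miRNAs (prior degrees of freedom 54.2, beside 1 residual). Each time stands in for a replicate over the 4 arrays. Other steps used Python 3.11.15, numpy 2.4.6, pandas 2.3.3 and matplotlib 3.10.9. Named miRNAs were the members, their passenger strands, a DNA methyltransferase list and the 3 most alike per member. Members and lists were chosen with earlier results of these data known. Sequences and genes came from RefSeq tables on GRCh38.p14. Alternatives were other scalings, normexp with an offset of 50, other probe summaries, a fold threshold of 1.5, and leaving out each array.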

Additional observations from a re-analysis of the deposited data

Results flagged for a closer look

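In all 3 guides berberine over control was below 0 at 2 h and above 0 at 4 h on the log2 scale of scaled signals, and this opposite direction is what drew attention. The ratio at 4 h minus that at 2 h was 0.21 for miR-29a (SE 0.21), 0.25 for miR-29b (SE 0.24) and 0.27 for miR-29c (SE 0.21). This difference between times was not tested, there being 1 array for each condition. The median over the 197 miRNAs measured at both times was 0.14, 133 of them had opposite signs at both times, and 96 were below 0 at 2 h and above 0 at 4 h, as the guides were. The opposite direction did not hold under every scaling. Scaled over the brighter miRNAs, miR-29b was at 0.0087 at 2 h, and with quantile normalisation miR-29a was at 0 at both times, miR-29b at 0 at 2 h and miR-29c at 0 at 4 h. With the 75th percentile over all 851 miRNAs the signs turned at both times, to 5.07, 5.08 and 5.07 at 2 h and -0.23, -0.18 and -0.16 at 4 h for miR-29a, miR-29b and miR-29c. On the berberine array at 2 h only 199 of the 851 were detected, so that percentile is the 0.1 written for undetected miRNAs. Its values at 2 h therefore tell nothing about direction. On both arrays at 4 h that percentile lies near the limit of detection.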

How the results depend on the processing

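With 1 array per condition, the calls rest on the software's error and on the scaling. With no scaling the log2 ratios of miR-29a, miR-29b and miR-29c became -0.56, -0.55 and -0.56 at 2 h and 0.58, 0.63 and 0.64 at 4 h. With the 75th percentile taken over all 851 miRNAs, most of them undetected, they became 5.07, 5.08 and 5.07 at 2 h, so that 3 members passed 2-fold, -0.23, -0.18 and -0.16 at 4 h, and 0.39, 0.36 and 0.28 between the controls. On the berberine array at 2 h only 199 were detected, so that percentile falls among the undetected miRNAs, written as 0.1. On the other arrays, with 226 to 242 detected, it lies near the limit of detection. Median scaling gave 0.0075, 0.055 and 0.069 at 4 h and 0.096, 0.073 and -0.0069 between the controls. Quantile normalisation gave 0, 0.037 and 0 at 4 h. Scaling over the brighter miRNAs gave 0.025 for miR-29a and 0.087 for miR-29c at 4 h. In the limma fit the sign turned for miR-29a with median scaling (-0.021) and for miR-29c with quantile normalisation (-0.048) and without both the control array at 4 h and the time term (-0.0046). Leaving out each array in turn, with the time term also dropped because 3 arrays leave it no residual degree of freedom, the limma ratio ran from 0.01 to 0.13 for miR-29a, from 0.03 to 0.17 for miR-29b and from -0.0046 to 0.21 for miR-29c. Of the values under other settings that bear on a comparison, 144 stayed within 1 SE or kept their call, 27 moved by more and 3 reversed, and of the other values 214 stayed within 1 SE and 74 moved. Among those with a sign, which leaves out the counts of members past a fold threshold, it turned in 7 of 115 that stayed and in 11 of 26 that moved. Among the other values it turned in 37 of the 214 and in 39 of the 74. The alternative that takes the authors' deposited ratios was not run, because that table holds only their own comparisons. No paired analysis was possible because the groups share only 1 replicate number, apart from the limma fit, whose time term pairs the arrays of a time.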
